A study of Mus musculus with 8 samples.

Results

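Mouse bone marrow stromal cells were compared for how far their response to space flight depended on the culture medium. The quantity described is the interaction of flight with medium, computed gene by gene on the log2 scale as the flight change in osteoinductive medium minus the flight change in growth medium. It uses 8 of the 8 arrays of the series, 2 in each of the 4 combinations of medium and flight, and the groups come from the sample titles. A negative interaction means that the flight change was lower in osteoinductive medium, and a log2 difference of 1 is a 2-fold difference in hybridisation signal.

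The cells were bone marrow stromal cells of C57BL/6 mice killed between 6 and 8 weeks of age, expanded in growth medium and then held on Skelite, a ceramic scaffold, and each sample was hybridised to 1 Affymetrix array. In osteoinductive medium, the flight arrays were a microgravity culture and a culture on a 1g centrifuge, both in automated units inside the KUBIK incubator, and the ground-based arrays were a culture in manually operated units and a culture in 24-well dishes. In growth medium the same 4 conditions were measured, again with 1 array each. The 2 arrays of a combination are therefore different conditions that stood in as repeats, and the labels do not state whether samples came from separate animals or cultures. All p-values here therefore rest on the spread within such pairs. That spread holds any difference between the 2 conditions of a pair, and may otherwise be technical. The gravity label of both centrifuge samples reads microgravity, and 1 of the descriptions of the centrifuge sample in osteoinductive medium names growth medium. Groups were taken from the titles here, and values that rest on these arrays would change if a title were wrong. In each description of a gene, flight values are given for the microgravity and then the centrifuge array, and ground-based values for the ground unit and then the dish.

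As background, osteoinductive medium drives marrow stromal cells toward bone-forming osteoblasts, and such media usually hold a glucocorticoid, a class of hormone that dampens inflammatory and interferon signalling. Interferons bind cell surface receptors and activate STAT and IRF transcription factors, which enter the nucleus and switch on antiviral genes through a short promoter element. Stromal cells that leave the cell cycle shut down a common set of cyclins, replication factors and mitotic kinases, many of which carry repeated CCAAT boxes in their promoters.

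The array medians lay between 180.9 and 196.4 on the linear intensity scale. Of the 18 stromal markers listed, 17 were on the array and 16 lay above the filter on dim genes. Col1a1, the main fibrillar collagen of bone and stroma, lay between 12.56 and 12.77 on the log2 scale in the 8 arrays. Other stromal markers were less even. In osteoinductive medium limma called 4 of the 16 lower and 1 higher in flight (adjusted p under 0.05, 11.7% and 7.1% of all). In growth medium it called 3 lower and 0 higher (5.79% and 8.1% of all tested genes). The leptin receptor gene Lepr, a marker of marrow reticular stroma, was below the filter at 5.04 to 5.84. Markers of other tissues also differed between flight and ground-based arrays. The mean log2 level of 21 neuronal genes was 8.96 to 9.11 in osteoinductive flight arrays against 7.22 to 7.23 in osteoinductive ground-based arrays, and 9.34 to 9.60 in growth medium flight arrays against 7.30 to 7.34 in growth medium ground-based arrays. In bulk RNA, a change in the number of cells of a type cannot be told apart from a change in RNA per cell, and this holds for all values below.

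No gene passed the threshold for an interaction. Over 13205 tested genes, limma called 0 at an adjusted p under 0.05 (0%), the smallest adjusted p being 0.6473. At an unadjusted p under 0.05 there were 525 genes (3.98%), of which 115 were higher (0.871%) and 410 lower (3.1%). Chance alone would give about 660 genes at this level, so the 525 are not an excess. The interaction had a median of -0.04 and an SD of 0.20 across genes, close to its median standard error of 0.18. The 95% interval of a gene reached 0.40 to either side at the median, and 0.34 to 0.55 between the 5th and 95th percentiles. These intervals are not adjusted over genes, and even Ifit3, with an interaction of -1.59, did not pass the adjusted threshold. For 1990 genes (15.1%) the sign was the same in all 16 differences of differences that take 1 array per combination, with 548 higher (4.15%) and 1442 lower (10.9%). In 17 genes the interaction was above 1 in size. Among the 6 higher ones were the lung genes Slc34a2 and Sftpa1, with standard errors of 1.04 and 0.85. Among the 11 lower ones were the interferon targets Ifit3 and Cxcl10, with standard errors of 0.32 and 0.32.

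Many genes differed between flight and ground-based arrays in both media, mostly in the same direction. The flight units were automated and the ground-based vessels manually operated units or dishes, so flight and hardware cannot be told apart. In osteoinductive medium 2479 genes passed (18.8%), with 938 higher (7.1%) and 1541 lower (11.7%) in flight. In growth medium 1833 genes passed (13.9%), with 1069 higher (8.1%) and 764 lower (5.79%). Of these, 1248 passed in both media with the same sign, which is 50.3% of the osteoinductive calls and 68.1% of the growth medium calls, and 0 passed with opposite signs. Across the 13205 genes the flight changes in the 2 media, which share no array, had a Pearson r of 0.88 and a Spearman rho of 0.80; these are correlations across genes, which are not independent replicates. Among the 777 genes that rose in flight in both media, 678 had the smaller rise in osteoinductive medium (median 0.75 in osteoinductive and 0.93 in growth medium). Among the 471 that fell in both, 336 had the deeper fall in osteoinductive medium (median -0.66 in osteoinductive and -0.57 in growth medium). Most shared responses thus had a lower value in osteoinductive medium, as did 7751 of all tested genes (58.7%). This share is that of the fit to all 8 arrays. The median interaction over all tested genes, -0.04 in that fit, was -0.09 without the growth medium microgravity array. It was 0.01 without the growth medium centrifuge array, so its sign depended on that array.

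The same interaction is the medium change in flight minus the medium change on the ground. In flight arrays 1272 genes differed between media (9.63%), with 538 higher (4.07%) and 734 lower (5.56%) in osteoinductive medium. In ground-based arrays 225 genes differed (1.7%), with 186 higher (1.41%) and 39 lower (0.295%). Of those 225, the medium change in flight had the same sign in 224, and 210 also passed there. Their median absolute medium change was 1.08 in flight and 0.88 on the ground. The counts differed widely when single arrays were left out, and the cause was not tested. The difference between microgravity and centrifuge arrays had an SD across genes of 0.22 in osteoinductive and 0.28 in growth medium, against 0.15 for ground unit minus dish in both media. Without the osteoinductive microgravity or centrifuge array, the flight calls in that medium numbered 1110 and 1266, and without its ground unit or dish array 861 and 936. Without either growth medium flight array they numbered 4446. In growth medium, flight calls numbered 5733 without the centrifuge array, 1081 without the microgravity array, and 881 and 800 without the ground unit or dish array. Medium calls in flight numbered 669 and 400 without the osteoinductive microgravity or centrifuge array, and 2781 without the growth medium microgravity array. Medium calls on the ground numbered 56 without the osteoinductive dish, 74 and 85 without the growth medium ground unit or dish, and 574 without either growth medium flight array.

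**Figure D1:**
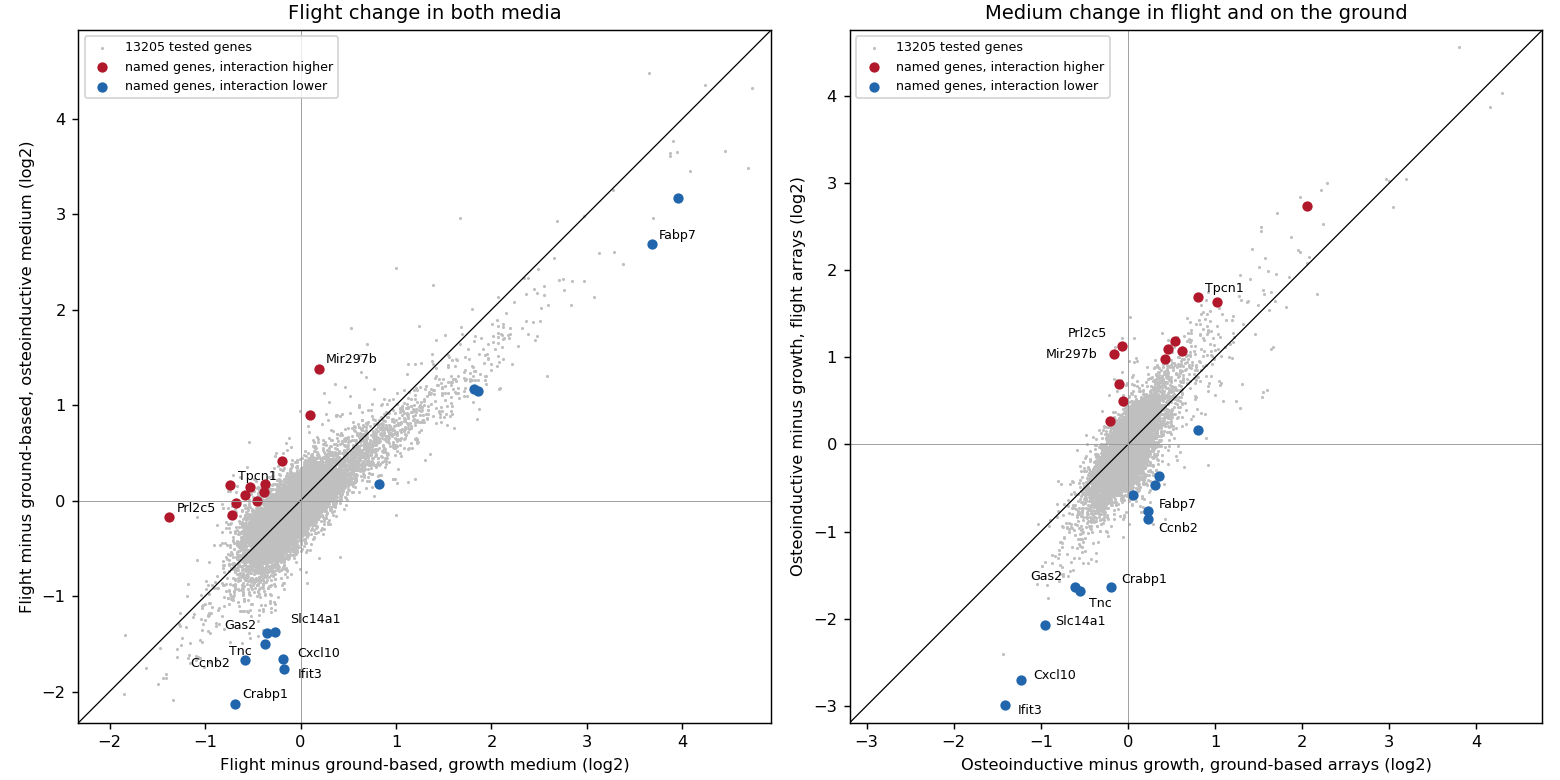
Flight change in osteoinductive medium against that in growth medium (left) and medium change in flight against that on the ground (right), in log2 units, for 13205 genes as grey points, with the 24 named genes in red (interaction above 0) or blue (below 0). The line marks equal changes: Ifit3 and Cxcl10 lie farthest below it at interactions of -1.59 and -1.48, and most genes with rises in both media sit just under it.

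The 2 lowest interactions were those of interferon-stimulated genes, followed by Crabp1 at -1.44, Fgf13 at -1.28 and Ndn at -1.20, which are not in that list. Ifit3, an antiviral protein with tetratricopeptide repeats, had the lowest interaction of all tested genes, and Cxcl10, a chemokine that attracts T cells, the next. In RefSeq promoters (GRCm38.p6, from 250 bases before to 50 after the start), the core of the interferon response element, GAAA, any 2 bases and GAAA again on either strand, occurred in 15 of 31 promoters of 25 listed genes (48.4%), against 382 of 13281 promoters of tested genes (2.88%) and 1131 of 32851 promoters in the whole table (3.44%). The list's genes are known interferon targets, so this describes the list and not its response. The promoters of the 2 genes are shown because they carry that element, which is in capitals. Ifit3 lies at chr19:34583279-34583578 on the plus strand and Cxcl10 at chr5:92348840-92349139 on the minus strand. Ifit3 holds 2 copies, starting 156 and 122 bases before the transcription start, and Cxcl10 holds 1, at 213 bases.
Ifit3: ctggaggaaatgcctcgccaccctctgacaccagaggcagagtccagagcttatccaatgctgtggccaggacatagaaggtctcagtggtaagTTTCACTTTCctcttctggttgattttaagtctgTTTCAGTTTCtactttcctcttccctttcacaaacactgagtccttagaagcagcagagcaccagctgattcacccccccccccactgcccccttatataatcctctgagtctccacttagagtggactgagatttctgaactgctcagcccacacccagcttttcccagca
Cxcl10: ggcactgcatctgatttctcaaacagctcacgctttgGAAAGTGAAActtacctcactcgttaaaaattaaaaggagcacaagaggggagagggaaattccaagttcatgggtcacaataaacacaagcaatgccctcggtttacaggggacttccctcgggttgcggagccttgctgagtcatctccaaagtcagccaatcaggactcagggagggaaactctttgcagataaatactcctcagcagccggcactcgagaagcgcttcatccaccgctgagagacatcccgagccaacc

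Ifit3 (probe set 10462618) had log2 intensities of 7.39 and 7.50 in osteoinductive flight arrays, against 9.26 and 9.16 in osteoinductive ground-based arrays. In growth medium it had 10.01 and 10.88 in flight arrays, against 10.43 and 10.80 in ground-based arrays. The osteoinductive flight arrays lay below the other 6, whereas the growth medium flight arrays overlapped their ground-based arrays. It fell by 1.76 on the log2 scale with flight in osteoinductive medium (SE 0.22, limma adjusted p = 0.000271), and its change in growth medium was -0.18 (adjusted p = 0.63). The interaction was -1.59 (SE 0.32, 95% interval -2.28 to -0.90, unadjusted p = 0.000319, limma adjusted p = 0.65). Seen as a medium effect, Ifit3 was 3.00 lower in osteoinductive than in growth medium in flight (limma adjusted p = 1.54e-05) and 1.41 lower on the ground (adjusted p = 0.00714). A near-identical copy, Ifit3b, could share its hybridisation.

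Cxcl10 (probe set 10531415) had 7.11 and 7.40 in osteoinductive flight arrays, against 9.11 and 8.72 in osteoinductive ground-based arrays. In growth medium it had 9.58 and 10.35 in flight arrays, against 10.01 and 10.28 in ground-based arrays. Its ordering of arrays was that of Ifit3, with the growth medium microgravity array as the lowest of the 4 growth medium arrays. The flight change was -1.66 in osteoinductive medium (limma adjusted p = 0.000409) and -0.18 in growth medium (adjusted p = 0.61), and the interaction was -1.48 (SE 0.32, limma adjusted p = 0.65).

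Of 40 listed interferon-stimulated genes, 34 were on the array and 32 were tested. With flight, 25 of the 32 fell in osteoinductive medium (11.7% of all tested genes fell) and 4 fell in growth medium (5.79% of all), while 0 rose in either. The 4 were Ifih1, a cytosolic RNA sensor, Iigp1, a GTPase, and Psmb8 and Tap1 of antigen processing, and these 4 had also fallen in osteoinductive medium. On the interaction 0 of 32 passed limma's test, but 30 lay below 0, with a median of -0.42 beside -0.04 over all tested genes, and 13 were lower at an unadjusted p under 0.05 (3.1% of all). Apart from the named pair, the members described here were chosen after their values were seen. Bst2, which tethers budding virions to the cell surface, had an interaction of -0.88, Irgm1, a GTPase of autophagy, -0.79, Gbp3, a guanylate-binding protein, -0.77, and Oasl2, an oligoadenylate synthetase-like protein, -0.74. Ifitm3 and Oasl1 were the 2 members above 0, at 0.08 and 0.04. Between media, 22 of 32 were lower in osteoinductive medium in flight (5.56% of all) and 7 on the ground (0.295% of all). The ground count of 7 became 17 without either growth medium flight array, 4 without either osteoinductive flight array or the osteoinductive ground unit, 2 without the growth medium ground unit, and 0 without either dish array.

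The 2 growth medium flight arrays differed in this list. Relative to the mean of the ground-based pair of the same medium, the median list member stood at -0.83 in the osteoinductive microgravity array and -0.74 in the osteoinductive centrifuge array. It stood at -0.58 in the growth medium microgravity array and -0.10 in the growth medium centrifuge array. The number of members below both ground-based arrays of their medium was 32, 31, 30 and 19 of 32 in the same order. The median interaction was -0.25 with the microgravity arrays as the only flight arrays, and -0.61 with the centrifuge arrays as the only ones. It was -0.64 without the growth medium microgravity array and -0.20 without the growth medium centrifuge array. The growth medium count of 4 became 29 without the growth medium centrifuge array, 0 without the growth medium microgravity, ground unit or dish array, and 1 without any 1 of the 4 osteoinductive arrays. The osteoinductive count of 25 became 15 without either osteoinductive ground-based array. Without the growth medium microgravity array, the interactions of Ifit3, Cxcl10, Bst2 and Gbp3 were -2.03, -1.86, -1.30 and -1.05. For each, the array left out was the lower of the 2 growth medium flight arrays, so the interaction widened. That fit leaves 1 flight array in growth medium. Neuronal markers also moved with flight, and their part in the result was not tested. Their median stood at 1.88 and 1.74 in osteoinductive medium, and at 2.19 and 2.12 in growth medium, for the microgravity and centrifuge arrays. The median of the 12 tested macrophage markers stood between -0.03 and 0.14 in the 4 flight arrays. Single members could differ, such as Lyz1 at 11.59 and 8.00 in osteoinductive flight arrays, against 6.78 and 6.89 in osteoinductive ground-based arrays. For Lyz1 the osteoinductive microgravity array lay above all others, as it did for the lung genes described below.

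**Figure D2:**
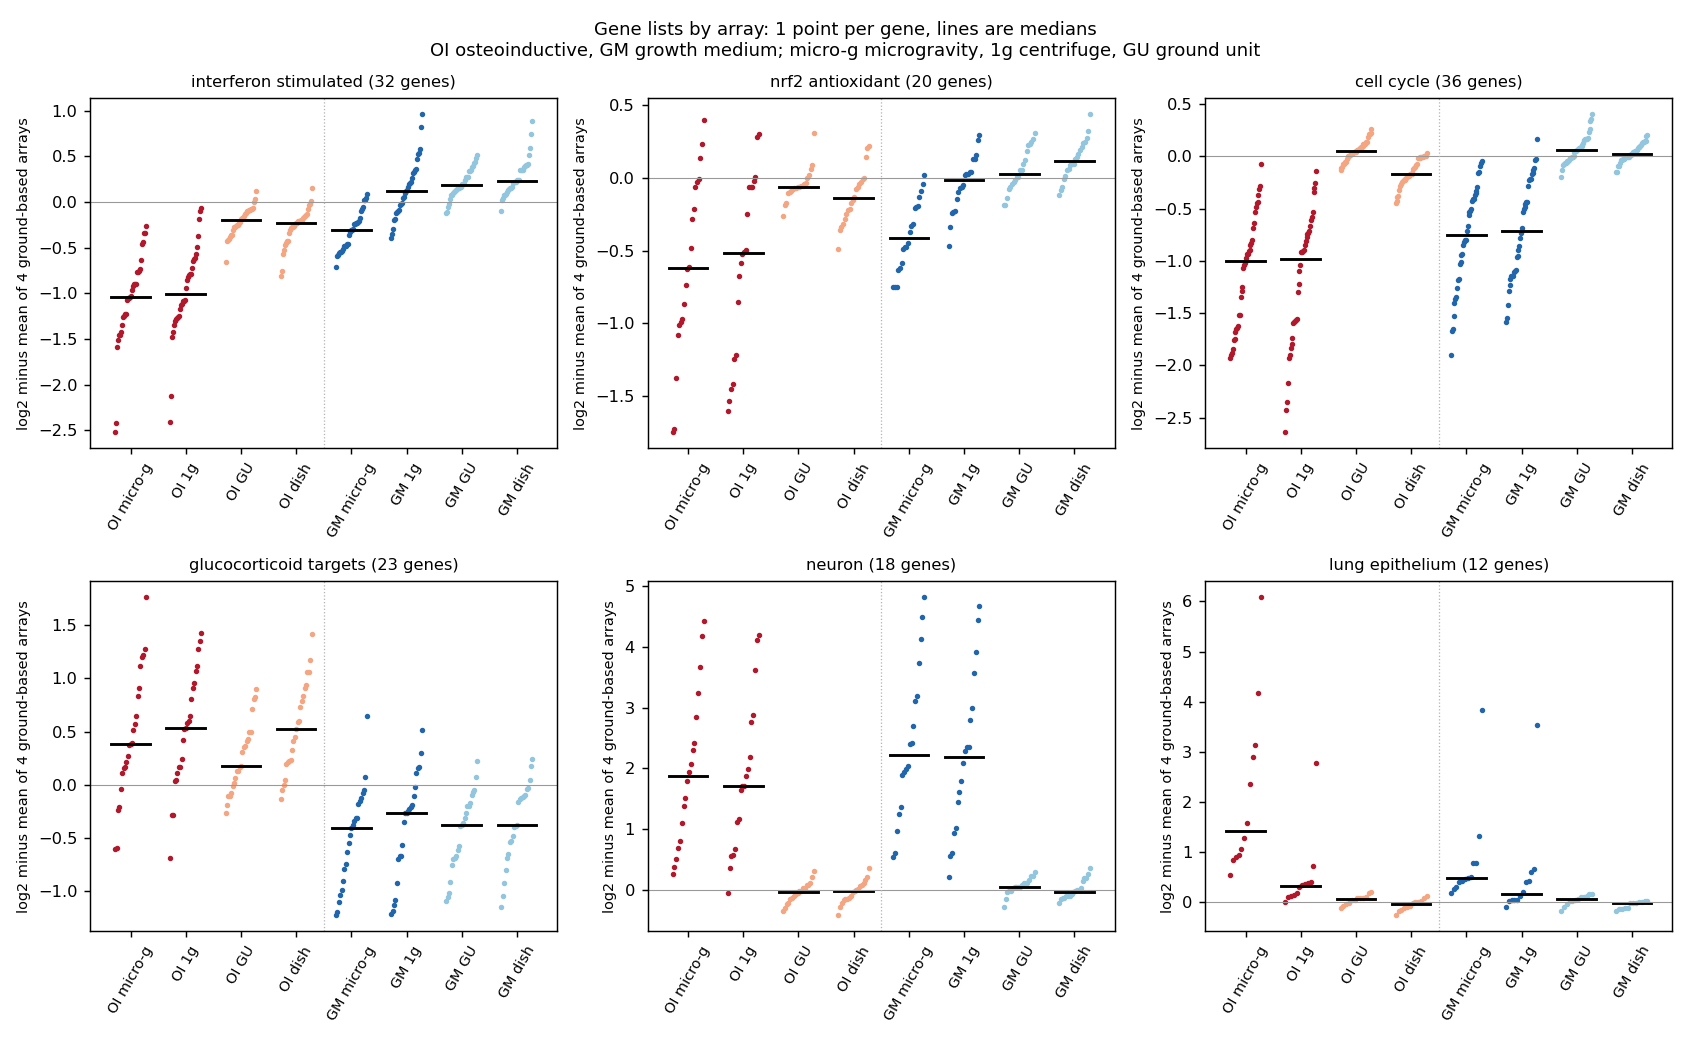
Log2 intensity minus the mean of the 4 ground-based arrays for the tested genes of 6 lists, 1 point per gene and array with lines at medians, and with osteoinductive arrays (red) left of the dotted line and growth medium arrays (blue) right of it. For interferon-stimulated genes the growth medium centrifuge array lies with the ground-based arrays of its medium, and for lung genes the osteoinductive microgravity array lies above the other 7.

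Genes of the cell cycle were lower in flight in both media, and most had their lower value in osteoinductive medium. Ccnb2, a B-type cyclin that drives entry into mitosis with Cdk1, was the member with the lowest interaction. Its RefSeq promoter (GRCm38.p6, chr9:70421505-70421804, minus strand) is shown because the spaced CCAAT boxes typical of such genes stand in it 3 times, in capitals, the outer ones starting 87 and 21 bases before the transcription start. ATTGG on either strand, which includes CCAAT, occurred in 27 of 34 promoters of 31 listed cell cycle genes (79.4%), against 37.4% of all promoters. The cell cycle homology element TTTGAA occurred in 18 of the 34 (52.9%), against 17.9% of all promoters.
Ccnb2: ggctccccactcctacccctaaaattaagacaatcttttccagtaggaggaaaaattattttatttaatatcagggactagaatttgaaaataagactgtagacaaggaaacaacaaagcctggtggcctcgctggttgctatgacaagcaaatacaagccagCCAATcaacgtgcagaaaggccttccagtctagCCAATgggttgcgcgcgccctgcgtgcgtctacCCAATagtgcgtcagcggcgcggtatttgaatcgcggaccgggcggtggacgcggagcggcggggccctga

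Ccnb2 (probe set 10594774) had 7.68 and 7.61 in osteoinductive flight arrays, against 9.42 and 9.20 in osteoinductive ground-based arrays. The growth medium values were 8.77 and 8.23 in flight arrays, against 9.12 and 9.04 in ground-based arrays. Flight arrays were below ground-based arrays in both media, with the wider gap in osteoinductive medium. It fell by 1.66 in osteoinductive medium (limma adjusted p = 3.88e-05) and by 0.58 in growth medium (adjusted p = 0.0332). The interaction was -1.08 (SE 0.23, limma adjusted p = 0.65). It was -1.35 without the growth medium centrifuge array, which leaves a lone flight array in that medium. Top2a, which untangles replicated DNA, had an interaction of -0.75, and Cdk1, the mitotic kinase, of -0.73, both chosen after their values were seen.

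Of 40 listed cell cycle genes, 39 were on the array and 36 were tested. In flight 32 of the 36 fell in osteoinductive medium (11.7% of all tested genes fell) and 28 in growth medium (5.79% of all), and the growth medium count was 18 without the dish array of that medium. The median flight change was -0.89 in osteoinductive and -0.68 in growth medium. No member passed the interaction, 33 of 36 lay below 0 (58.7% of all) with a median of -0.34 beside -0.04 over all, and 12 were lower at an unadjusted p under 0.05 (3.1% of all). The list's median interaction stayed between -0.42 and -0.26 when single arrays were left out. The median medium change was -0.39 in flight and -0.11 on the ground. In flight 11 of the 36 were lower in osteoinductive medium (5.56% of all), a count that became 1 without the osteoinductive centrifuge array and 17 without the growth medium microgravity array.

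Because no gene passed, the rule for named genes ranked genes that kept their sign in all 16 combinations of arrays by their smallest size among the 16, and took the first 12 in each direction. The 12 lower ones included Ifit3, Cxcl10 and Ccnb2 and 9 others. Crabp1, a cytosolic carrier of retinoic acid (probe set 10585438), had 9.62 and 9.42 in osteoinductive flight arrays, against 11.85 and 11.44 in osteoinductive ground-based arrays. The growth medium values were 10.86 and 11.45 in flight arrays, against 11.75 and 11.94 in ground-based arrays. It fell by 2.13 in osteoinductive medium (limma adjusted p = 2.33e-05) and fell by 0.69 in growth medium (adjusted p = 0.0332), with an interaction of -1.44 (SE 0.27, limma adjusted p = 0.65). Tnc, the matrix glycoprotein tenascin C (probe set 10513739), had 9.94 and 9.82 in osteoinductive flight arrays, against 11.52 and 11.24 in osteoinductive ground-based arrays, and 11.33 and 11.80 in growth medium flight arrays, against 12.03 and 11.84 in growth medium ground-based arrays. It fell by 1.50 in osteoinductive medium (limma adjusted p = 8.67e-05), and its change in growth medium was -0.37 (adjusted p = 0.14). The interaction was -1.13 (SE 0.23). Gas2, an actin-associated protein of growth-arrested cells, and Slc14a1, a urea transporter on chromosome 18, were similar. Gas2 fell by 1.38 in osteoinductive medium, with a change of -0.35 in growth medium (limma adjusted p = 0.15) and an interaction of -1.03. Slc14a1 fell by 1.38 in osteoinductive medium, with a change of -0.26 in growth medium (limma adjusted p = 0.30) and an interaction of -1.12. Without the growth medium microgravity array the interactions of Crabp1, Tnc, Gas2 and Slc14a1 were -1.73, -1.36, -1.27 and -1.36. That fit leaves a lone growth medium flight array, the higher of the pair for each of these genes.

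Another group of low interactions came from genes that rose in flight in both media, by less in osteoinductive medium. Fabp7, the brain fatty acid-binding protein (probe set 10363224), had 9.37 and 9.46 in osteoinductive flight arrays, against 6.72 and 6.75 in osteoinductive ground-based arrays. In growth medium it had 10.10 and 10.27 in flight arrays, against 6.40 and 6.61 in ground-based arrays. It rose by 2.68 in osteoinductive medium (limma adjusted p = 8.66e-08) and by 3.68 in growth medium (adjusted p = 4.97e-09). The interaction was -0.99 (SE 0.17, unadjusted p = 9.55e-05, limma adjusted p = 0.65). It was -1.08 without the growth medium microgravity array, which leaves a lone flight array in that medium. Ttr, the thyroid hormone and retinol carrier transthyretin, rose by 3.17 in osteoinductive and 3.95 in growth medium, with an interaction of -0.78. Tagln3, a neuronal calponin-family protein, rose by 1.17 in osteoinductive and 1.82 in growth medium, and Mturn, a protein of neural differentiation, by 1.14 in osteoinductive and 1.86 in growth medium, with interactions of -0.64 and -0.72. Sfrp1, a secreted Wnt antagonist, rose by 0.82 in growth medium (limma adjusted p = 0.000265), with a change of 0.18 in osteoinductive medium (adjusted p = 0.27) and an interaction of -0.64. Its 2 osteoinductive ground-based arrays, at 7.73 and 7.78, were already near the flight arrays of both media at 7.74 to 7.93, while the growth medium ground-based arrays lay at 6.93 and 6.96.

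**Figure D3:**
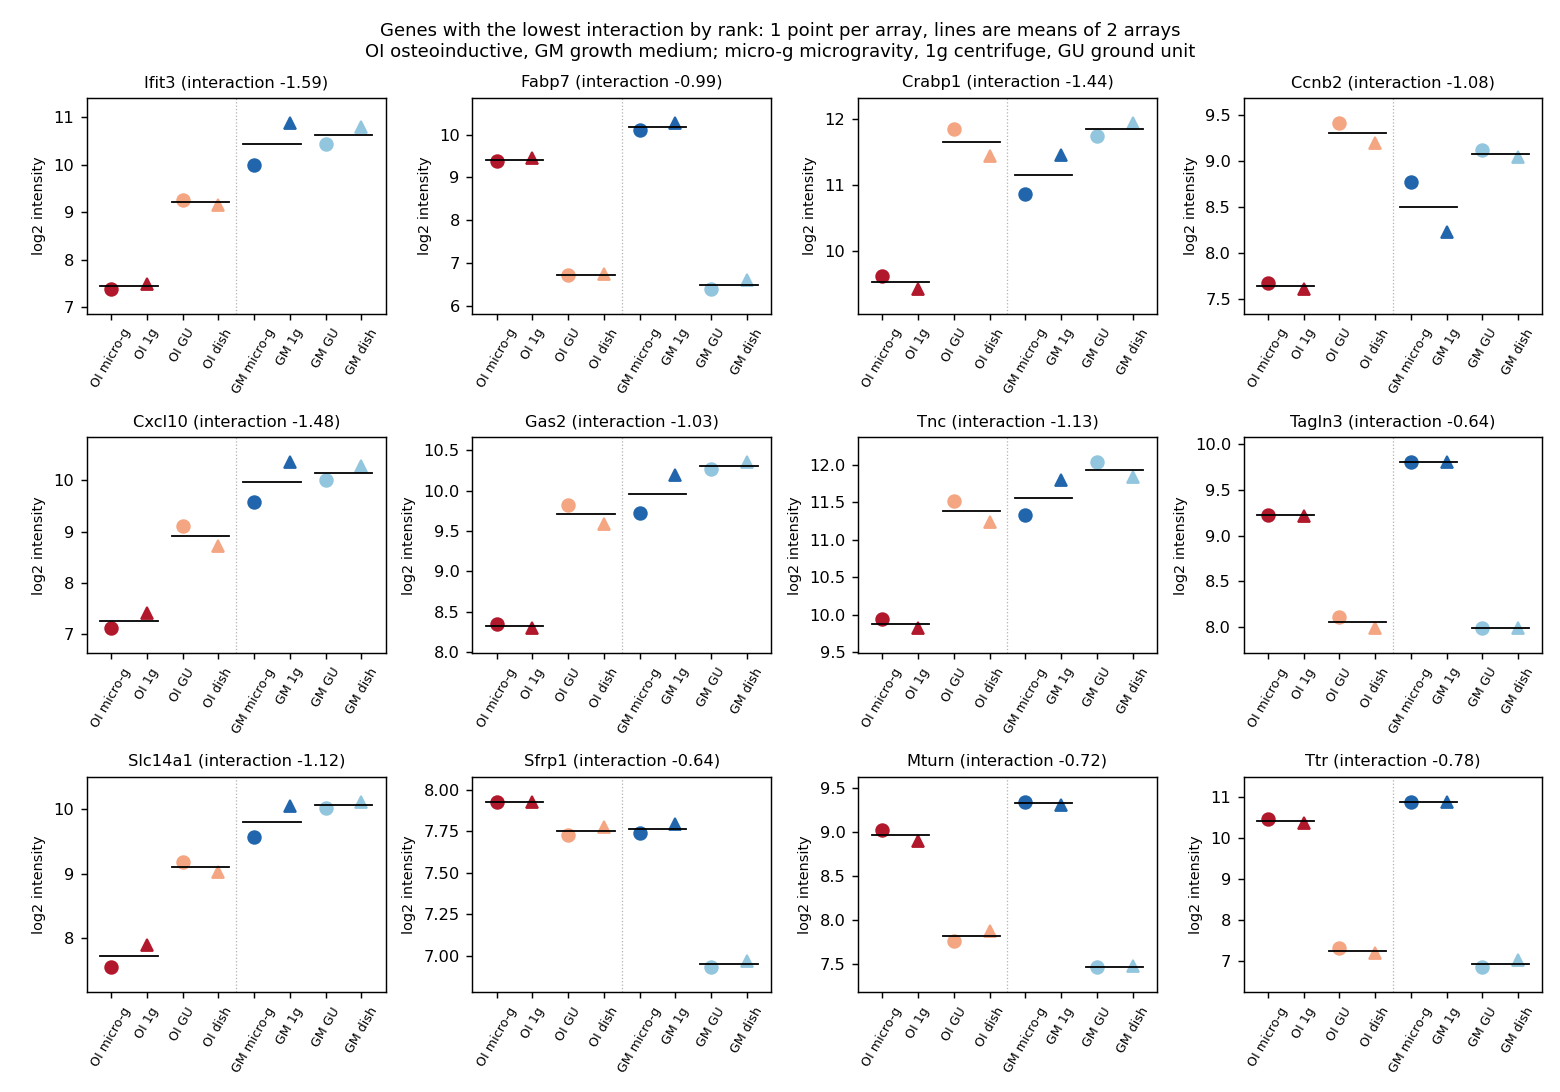
Log2 intensity in each of the 8 arrays for the 12 genes with the lowest interactions under the naming rule, 1 point per array and lines at the means of 2 arrays, with osteoinductive arrays left of the dotted line. Ifit3, Crabp1, Ccnb2, Cxcl10, Gas2, Tnc and Slc14a1 are lowest in the osteoinductive flight arrays, while Fabp7, Tagln3, Mturn and Ttr are highest in the growth medium flight arrays.

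The smaller rises in osteoinductive medium extended to other markers of nerve and muscle, tissues that are not the labelled cell type. Of 18 tested neuronal genes 17 rose in each medium, where 7.1% of all tested genes rose in osteoinductive and 8.1% in growth medium, with median flight changes of 1.80 in osteoinductive and 2.12 in growth medium. The interaction was below 0 in 16 of the 18 (58.7% of all), with a median of -0.28 beside -0.04 over all and 0 members past limma's threshold, and 6 were lower at an unadjusted p under 0.05 (3.1% of all). The median was -0.44 without the growth medium centrifuge array and -0.16 without the growth medium microgravity array. Syp, a synaptic vesicle protein, had 9.04 and 8.96 in osteoinductive flight arrays, against 7.19 and 7.32 in osteoinductive ground-based arrays, and 9.65 and 9.60 in growth medium flight arrays, against 7.22 and 7.26 in growth medium ground-based arrays. Its interaction was -0.63 (SE 0.16, limma adjusted p = 0.85), and it was chosen after its values were seen. Of 19 tested skeletal muscle genes, 14 rose in osteoinductive and 13 in growth medium, beside the same shares of all genes, and 17 had an interaction below 0, with a median of -0.16. That median was -0.27 without the growth medium centrifuge array and -0.10 without the growth medium microgravity array. The muscle actin gene Acta1 rose by 2.05 in osteoinductive and 2.60 in growth medium (interaction -0.55). The mean neuronal level lay between 7.22 and 7.34 in all 4 ground-based arrays.

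The 12 higher genes under the naming rule included 2 microRNA genes, Mir669b and Mir297b, which lie on chromosome 2 and belong to a repeated cluster in an intron of Sfmbt2. Mir297b (probe set 10469243) had 9.37 and 8.81 in osteoinductive flight arrays, against 7.90 and 7.52 in osteoinductive ground-based arrays, and 8.22 and 7.90 in growth medium flight arrays, against 7.87 and 7.86 in growth medium ground-based arrays. It rose by 1.38 in osteoinductive medium (limma adjusted p = 0.000409), with a change of 0.19 in growth medium (adjusted p = 0.51) and an interaction of 1.19 (SE 0.26, limma adjusted p = 0.70). Mir669b rose by 0.90 in osteoinductive medium, with a change of 0.10 in growth medium and an interaction of 0.80. Probes for such cluster members may hybridise with near-identical copies and with precursor RNA, so which member they measured is uncertain. The host gene Sfmbt2, a Polycomb-group protein, had an interaction of 0.20 (SE 0.19).

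The remaining high interactions mostly came from genes that fell in flight in growth medium and lay near their ground level in osteoinductive medium. Tpcn1, a cation channel of endosomes and lysosomes (probe set 10533145), had 10.55 and 10.68 in osteoinductive flight arrays, against 10.37 and 10.54 in osteoinductive ground-based arrays. In growth medium it had 8.79 and 9.05 in flight arrays, against 9.69 and 9.62 in ground-based arrays. It fell by 0.73 in growth medium (limma adjusted p = 0.00222), its change in osteoinductive medium was 0.16 (adjusted p = 0.41), and the interaction was 0.89 (SE 0.18, limma adjusted p = 0.65). Prl2c5, a proliferin of the prolactin family with near-identical relatives, had 7.96 and 8.32 in osteoinductive flight arrays, against 8.34 and 8.29 in osteoinductive ground-based arrays, and 6.76 and 7.25 in growth medium flight arrays, against 8.04 and 8.72 in growth medium ground-based arrays. Its growth medium flight arrays were below the other 6 arrays, and the interaction was 1.20 (SE 0.30, limma adjusted p = 0.85).

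Of the other genes under the rule, Mrc2, an endocytic receptor that takes up collagen, fell by 0.67 in growth medium (limma adjusted p = 0.00229), with a change of -0.03 in osteoinductive medium (adjusted p = 0.90) and an interaction of 0.65. Col6a3, a chain of the microfibrillar collagen VI, fell by 0.72 in growth medium (limma adjusted p = 0.00213), with a change of -0.15 in osteoinductive medium (adjusted p = 0.41) and an interaction of 0.56. Lrp1, a large scavenger receptor of the low density lipoprotein receptor family, fell by 0.58 in growth medium (limma adjusted p = 0.0125), with a change of 0.06 in osteoinductive medium and an interaction of 0.64. S100a16, a calcium-binding protein, and Ms4a4d, a membrane-spanning protein, had interactions of 0.45 and 0.68. Pi16, a peptidase inhibitor found in fibroblasts, rose by 0.42 in osteoinductive medium (limma adjusted p = 0.0332), with a change of -0.19 in growth medium (adjusted p = 0.30) and an interaction of 0.61. The dim genes Tas2r126, a bitter taste receptor, and Prob1, on chromosome 18, had interactions of 0.55 and 0.48 at log2 levels of 6.81 to 7.39 and 7.28 to 7.70. In flight 11 of the 12 were higher in osteoinductive medium (4.07% of all tested genes), all but Prob1. On the ground 5 of the 12 were (1.41% of all), namely Tpcn1, Mrc2, Pi16, S100a16 and Ms4a4d. A high interaction is a medium change that is higher in flight than on the ground. Choosing the 12 by it therefore favoured the larger count in flight.

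**Figure D4:**
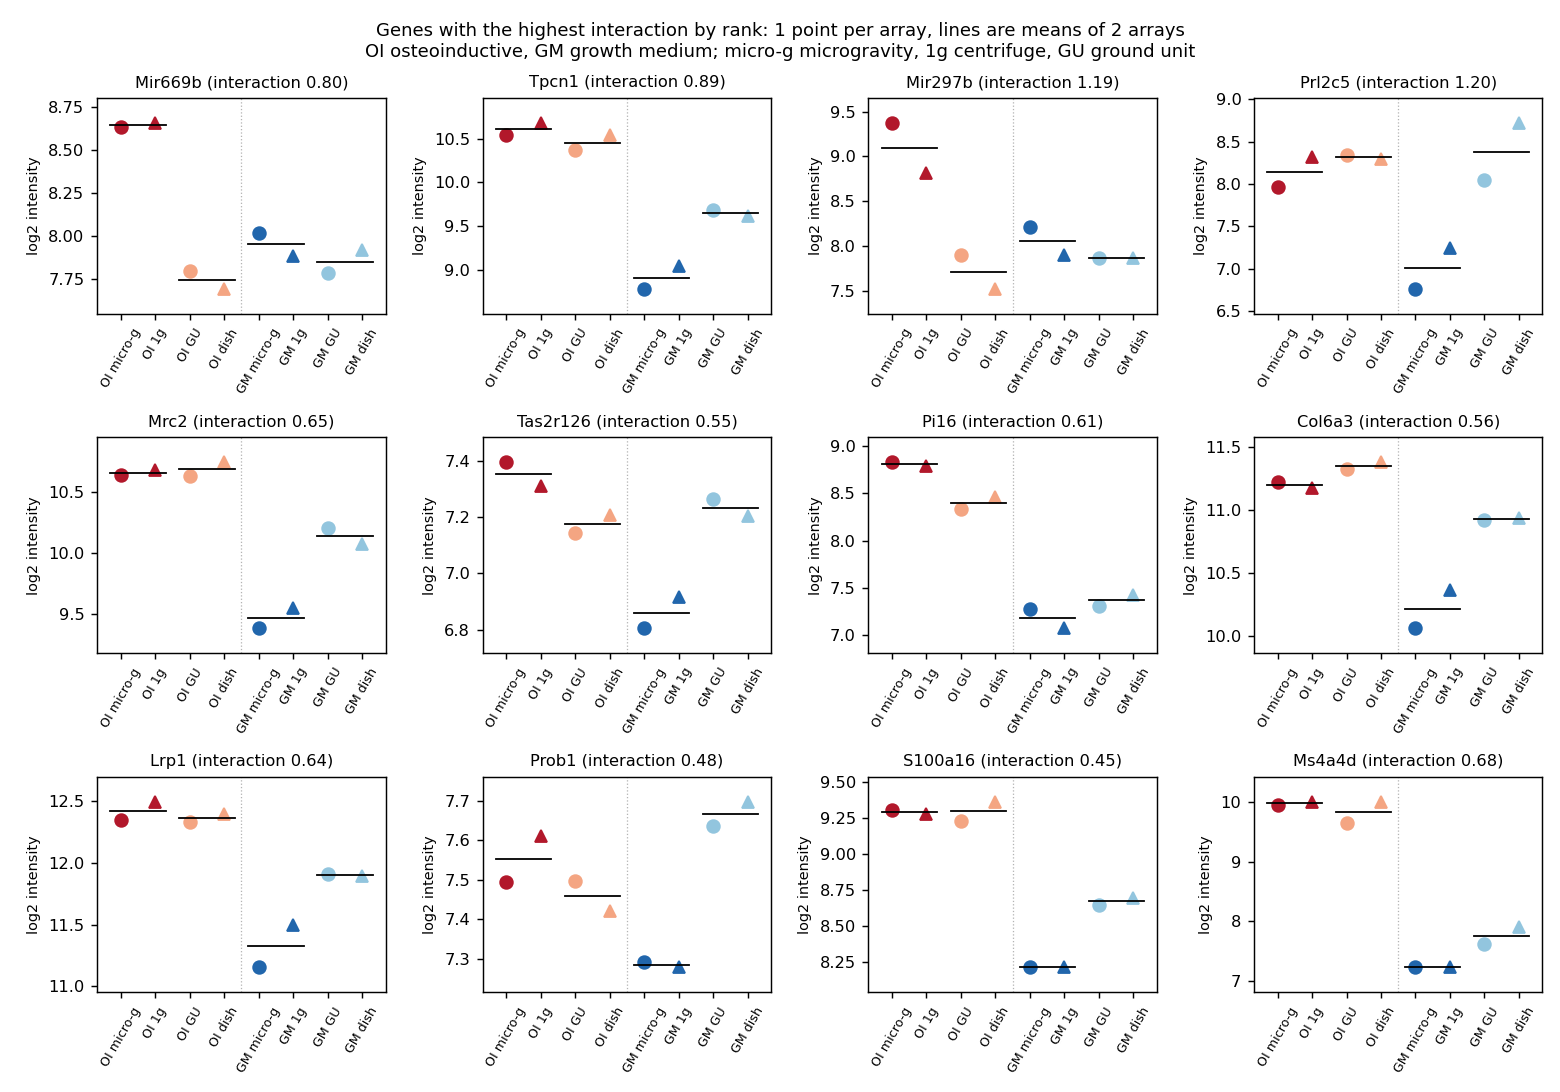
Log2 intensity in each of the 8 arrays for the 12 genes with the highest interactions under the naming rule, 1 point per array and lines at the means of 2 arrays, with osteoinductive arrays left of the dotted line. Mir669b and Mir297b are highest in the osteoinductive flight arrays, while Tpcn1, Mrc2, Col6a3, Lrp1 and Prl2c5 are lowest in the growth medium flight arrays.

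Among NRF2 antioxidant genes the share of members with an interaction below 0, 14 of 20, was near the 58.7% of all tested genes, while single members lay low. Hmox1, which degrades haem, had 9.97 and 10.27 in osteoinductive flight arrays, against 11.64 and 11.44 in osteoinductive ground-based arrays, and 11.25 and 11.66 in growth medium flight arrays, against 11.96 and 11.85 in growth medium ground-based arrays. It fell by 1.42 in osteoinductive medium (limma adjusted p = 0.000103), with a change of -0.45 in growth medium (adjusted p = 0.08) and an interaction of -0.97 (SE 0.22, limma adjusted p = 0.77). Gclm, a subunit of the enzyme that limits glutathione synthesis, had an interaction of -0.90, and Txnrd1, a thioredoxin reductase, of -0.68. These 3 genes and those of the next list were chosen after their values were seen. Of 20 tested NRF2 targets (24 listed), 10 fell in osteoinductive medium (11.7% of all tested genes fell) and 2 in growth medium (5.79% of all), and the median interaction was -0.14 beside -0.04 over all. At an unadjusted p under 0.05, 5 were lower (3.1% of all) and 1 was higher (0.871% of all). The osteoinductive count was 6 without the ground unit array of that medium. The growth medium count was 13 without the growth medium centrifuge array, 0 without any 1 of the other 3 growth medium arrays or either osteoinductive ground-based array, and 1 without either osteoinductive flight array. The median interaction was 0.06 without the growth medium centrifuge array and -0.38 without the growth medium microgravity array, so its sign depended on the growth medium centrifuge array.

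Sterol synthesis converts acetyl-CoA to cholesterol under the control of SREBP2. Of 17 tested members (22 listed), 16 had an interaction below 0 (58.7% of all), with a median of -0.32 beside -0.04 over all, 0 past limma's threshold and 3 lower at an unadjusted p under 0.05 (3.1% of all). Fdps, which makes farnesyl diphosphate, had 8.41 and 8.48 in osteoinductive flight arrays, against 9.62 and 9.54 in osteoinductive ground-based arrays, and 9.33 and 9.10 in growth medium flight arrays, against 9.70 and 9.51 in growth medium ground-based arrays. It fell by 1.14 in osteoinductive medium (limma adjusted p = 9.57e-05), with a change of -0.39 in growth medium (adjusted p = 0.06) and an interaction of -0.75 (SE 0.18, limma adjusted p = 0.80). Cyp51, the lanosterol demethylase, had an interaction of -0.55. In flight 7 members fell and 1 rose in osteoinductive medium (11.7% of all genes fell and 7.1% rose), while 0 fell and 2 rose in growth medium (5.79% of all fell and 8.1% rose). The 7 became 2 without the osteoinductive centrifuge, ground unit or dish array, and 4 without either growth medium ground-based array. The 0 became 4 without the growth medium centrifuge array and 1 without the growth medium microgravity array. The 1 rise became 0 without the osteoinductive microgravity, ground unit or dish array and 2 without either growth medium flight array, and the 2 rises became 1 without either growth medium ground-based array. The median interaction stayed below 0 when single arrays were left out, between -0.37 and -0.16.

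For genes that the medium moved on the ground, the same medium change mostly held in flight. Of 23 tested glucocorticoid targets (30 listed), 13 were higher in osteoinductive medium in flight (4.07% of all tested genes) and 12 on the ground (1.41% of all), the 12 becoming 6 without the osteoinductive dish array and 8 without the growth medium ground unit. On the interaction 0 passed limma's threshold, 1 was higher at an unadjusted p under 0.05 (0.871% of all), and the median was 0.16 beside -0.04 over all. That median was 0.01 without the osteoinductive ground unit array and 0.33 without the osteoinductive dish array. Fkbp5, a chaperone that feeds back on the glucocorticoid receptor, had 11.41 and 11.56 in osteoinductive flight arrays, against 10.96 and 11.55 in osteoinductive ground-based arrays, and 8.94 and 8.95 in growth medium flight arrays, against 9.05 and 8.99 in growth medium ground-based arrays. It was 2.54 higher in osteoinductive medium in flight (limma adjusted p = 6.27e-06) and 2.23 higher on the ground (adjusted p = 2.22e-05), and its interaction of 0.30 was within error (SE 0.23). Tsc22d3, the glucocorticoid-induced leucine zipper, was 1.77 higher in flight and 1.56 higher on the ground. Anxa1, an anti-inflammatory phospholipid-binding protein, was 1.00 higher in flight (limma adjusted p = 0.00327), with 0.40 on the ground (adjusted p = 0.41) and an interaction of 0.60. These 3 and the members of the next lists were chosen after their values were seen.

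Bone and growth factor genes gave single low interactions rather than a lower list median. Igfbp5, a binding protein for insulin-like growth factors that accumulates in bone matrix, had 10.35 and 10.22 in osteoinductive flight arrays, against 9.25 and 9.61 in osteoinductive ground-based arrays, and 9.87 and 9.61 in growth medium flight arrays, against 7.80 and 7.98 in growth medium ground-based arrays. It rose in both media, by 0.85 in osteoinductive and by 1.84 in growth medium, and the interaction was -0.99 (SE 0.21, limma adjusted p = 0.65). On the ground it was 1.54 higher in osteoinductive medium (limma adjusted p = 0.000172), and in flight 0.55 higher (adjusted p = 0.04). Mmp13, a collagenase of bone, and Fabp4, the adipocyte fatty acid-binding protein, also changed more in growth medium. Mmp13 rose by 1.13 in growth medium (limma adjusted p = 0.000664), with a change of 0.19 in osteoinductive medium and an interaction of -0.94. Fabp4 rose by 1.20 in growth medium (limma adjusted p = 0.00108), with a change of 0.23 in osteoinductive medium and an interaction of -0.98. Ibsp, bone sialoprotein, rose by 1.41 in osteoinductive and 2.05 in growth medium, with an interaction of -0.65. Dlx5, an osteoblast transcription factor, had an interaction of -0.87, and its growth medium flight arrays differed, at 9.14 and 7.96. Without the growth medium centrifuge array, the lower of that pair, the interaction of Dlx5 was -1.46. The osteoblast list as a whole had a median interaction of -0.03 over 20 tested members of 30 listed, and the IGF list 0.08 over 12 of 14, beside -0.04 over all. At an unadjusted limma p under 0.05, 3 of the 20 and 2 of the 12 were lower (3.1% of all). In both lists 0 were higher (0.871% of all). Without single arrays the osteoblast median ran from -0.06 without the osteoinductive centrifuge array to 0.01 without the growth medium dish array. The IGF median ran from 0.02 without the growth medium microgravity array to 0.14 without the osteoinductive centrifuge array.

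Markers of lung epithelium and endothelium had the highest list medians, and these rested on the osteoinductive microgravity array. Sftpc, surfactant protein C of alveolar cells, had 12.81 and 9.50 in osteoinductive flight arrays, against 6.61 and 6.75 in osteoinductive ground-based arrays. In growth medium it had 10.56 and 10.27 in flight arrays, against 6.78 and 6.75 in ground-based arrays. The osteoinductive pair thus lay on either side of the growth medium flight pair, and the interaction of 0.82 had an SE of 0.98. Slc34a2, a phosphate transporter of alveolar cells, had 10.80 and 7.35 in osteoinductive flight arrays, against 6.71 and 6.55 in osteoinductive ground-based arrays, and 7.94 and 7.28 in growth medium flight arrays, against 6.72 and 6.50 in growth medium ground-based arrays. Of 18 listed lung genes 12 were tested, and their median interaction of 0.68, beside -0.04 over all, became -0.19 without the osteoinductive microgravity array and 1.28 without the osteoinductive centrifuge array. The endothelial median of 0.21 over 14 of 16 genes became 0.01 without the microgravity array and 0.53 without the centrifuge array of that medium. For the lung list, 5 members rose in flight in osteoinductive medium (7.1% of all) and 1 in growth medium (8.1% of all). The 5 became 11 without the osteoinductive centrifuge array and 1 without any 1 of the other 3 osteoinductive arrays, and the 1 became 5 without either osteoinductive flight array.

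The lists and the arrays left out can be read together. With the microgravity arrays as the only flight arrays, 38 genes passed the interaction, 29 higher and 9 lower, and 6 of the 38 were in the lung list, among them Sftpc, Sftpa1, Sftpb and Slc34a2. Without the osteoinductive centrifuge array alone 15 passed, each of them higher, all of these being among the 38. Without the growth medium centrifuge array 5 passed, each lower: the mitotic cyclin Ccnb2, Dlx5, Fgf13, a fibroblast growth factor homologue of neurons, and the histone genes H2bc14 and H4c3, which have near-identical copies. Without the growth medium microgravity array, Ifit3 and Cxcl10 had their lowest interactions under any of the alternatives, at -2.03 and -1.86. Each fit in this paragraph leaves a combination with a lone array, and its counts rest on that array. With the centrifuge arrays as the only flight arrays limma called 0 genes, while 2281 had an unadjusted p under 0.05 (17.3%).

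Among the other lists, lysosomal genes had 19 of 23 tested members above 0, with a median of 0.14, and this median ranged from 0.00 without the growth medium microgravity array to 0.36 without the growth medium centrifuge array. Matrix proteases had a median of 0.19 with 5 of 20 below 0, which was 0.10 without the osteoinductive ground unit array and 0.30 without the osteoinductive microgravity array. Collagens and other matrix genes had a median of 0.07 with 13 of 30 below 0. At an unadjusted limma p under 0.05, 2 were higher (0.871% of all) and 5 lower (3.1% of all). The matrix median was 0.00 without the growth medium microgravity array. Genes of the unfolded protein response had a median of -0.09 with 19 of 29 below 0, a share near the 58.7% of all tested genes. Its sign turned when 1 array was left out, with -0.31 without the growth medium microgravity array and 0.11 without the growth medium centrifuge array. Ribosomal proteins had a median of 0.00 over 20 tested members, with -0.17 without the growth medium microgravity array and 0.18 without the growth medium centrifuge array. Respiratory chain subunits had a median of 0.00 over 33 members, with -0.18 and 0.17 without the same arrays. The labelled cell type's own markers had a median of 0.10 over 16 tested genes, with 7 below 0, and this was 0.02 without the osteoinductive microgravity array and 0.16 without the growth medium centrifuge array.

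**Figure D5:**
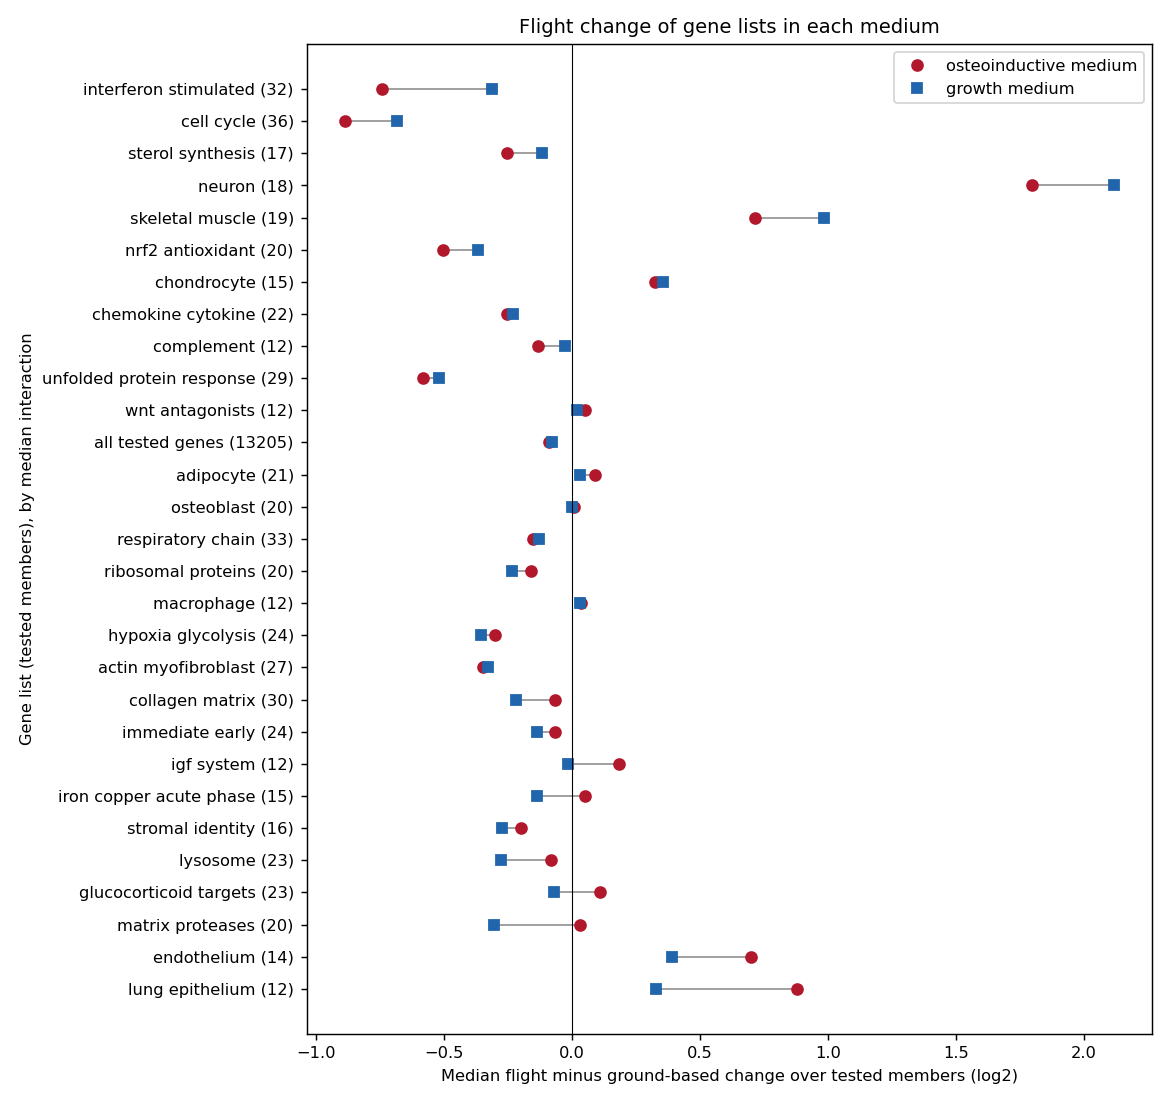
Median flight change (log2) over the tested members of each gene list in osteoinductive medium (red circles) and growth medium (blue squares), with lists ordered by their median interaction from the lowest at the top. Interferon-stimulated genes stand at -0.74 in osteoinductive and -0.31 in growth medium, and neuronal genes at 1.80 in osteoinductive and 2.12 in growth medium.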

How the data were processed

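Each of 8 samples was measured on 1 array, and the series matrix holds 1 linear intensity per probe set and array, as deposited by the authors; per the labels' protocols, 100 ng of total RNA was amplified and biotin-labelled. RMA and GCRMA are named, without versions, in the submitters' processing notes, and which of them gave these values is unknown. RMA-type summaries compress differences of dim probe sets. For the array, no genome build was given in the sources used. The intensities were used as deposited after log2, with no pseudocount, since array medians differed by at most 0.12 (log2).

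Of 35557 probe sets, 21789 had 1 gene in the platform annotation, 1621 several and 12147 were not named; those with several genes or no name stayed out. RefSeq names of GRCm38.p6 matched 21698. The probe set with the highest mean stood for a gene. Genes were tested if their mean passed the 40th percentile over probe sets (log2 7.14), leaving 13205 of 19938. limma 3.58.1 in R 4.3.3 (lmFit, eBayes; 4 residual degrees of freedom) fitted 1 mean per combination of medium and flight, and contrasts were adjusted by Benjamini-Hochberg, two-sided, threshold 0.05. The fit was tested on simulated data with independent noise in each array. Such data cannot check its error rate here, because the arrays of a combination were different conditions. Other steps used Python 3.11.15, pandas 2.3.3 and numpy 2.4.6. The number of arrays limits the precision.

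The comparison, the gene lists, the tests and the naming rule were chosen with earlier results of these data known. The naming rule took the 12 genes in each direction with the largest smallest value over the 16 differences of differences that take 1 array per combination; predicted genes were not named. The rule for list members required a passed interaction and gave none, so members named from lists were chosen after their values were seen. Lists are described by counts and medians, and the shares over all tested genes stand beside called counts of the main lists. Alternatives were quantile normalization, other filters, 32 added before log2, the mean of a gene's probe sets, culture condition as a block, eBayes with trend and robust settings, subsets of the arrays, and leaving out each array in turn. For the contrasts other than the interaction, these were chosen after seeing the data.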

Additional observations from a re-analysis of the deposited data

Results flagged for a closer look

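In 3 of the named genes the flight change had opposite signs in the 2 media for every pairing of a flight with a ground-based array, positive in osteoinductive and negative in growth medium. For Tpcn1, a cation channel of endosomes and lysosomes, the interaction was 0.89 (log2; limma adjusted p = 0.65). For Pi16, a peptidase inhibitor, it was 0.61 (limma adjusted p = 0.98), and for Tas2r126, a bitter taste receptor near the filter on dim genes, it was 0.55 (limma adjusted p = 0.98). The difference between media did not pass limma's test in any of the 3. The groups of 2 arrays are too small for a search for outlying samples.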

How the results depend on the processing

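The count of 0 genes past the interaction threshold held for quantile normalization, other filters, 32 added before log2, mean probe sets, trended robust eBayes, culture condition as a block, and the centrifuge, ground unit or dish subsets. With quantile normalization limma gave 885 genes at an unadjusted p under 0.05 (smallest adjusted p 0.184), with the block 635 (0.0757). With microgravity arrays as the only flight arrays it called 38, 29 higher and 9 lower, and without single arrays 0 to 15 in all, 0 to 15 higher and 0 to 15 lower. Flight calls in osteoinductive medium numbered 1586 with the stricter filter (60th percentile), 3873 with microgravity arrays only, 3756 with centrifuge arrays only, 802 with ground units only, 694 with dishes only, and 861 to 4446 without single arrays. Flight calls in growth medium numbered 863 with the stricter filter, 6336 with microgravity arrays only, 688 with ground units only, 764 with dishes only, and 800 to 5733 without single arrays. Medium calls in flight numbered 2060 with quantile normalization, 2909 with centrifuge arrays only, 761 with ground units or dishes only, and 400 to 2781 without single arrays. Medium calls on the ground numbered 782 with microgravity or centrifuge arrays only, 45 with ground units only, 100 with dishes only, and 56 to 574 without single arrays. The cause was not tested. Of the named genes 0 changed sign under the alternatives. For most alternatives the naming rule fixed this outcome, because it took only genes whose sign held in every combination of arrays. Leaving out arrays only averages some of those combinations, and the filters, the block and the eBayes settings leave the estimates as they were. A change of sign was possible only with quantile normalization, 32 added before log2 or mean probe sets. The block paired the 2 media within each culture condition, since the labels give no replicate numbers. With 1 array per condition, a lone array left in a combination is assumed to vary like the others.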

Other observations

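Prostaglandin synthesis gave a further low value outside the lists described so far. Ptgs2, the inducible cyclooxygenase, had 10.78 and 10.86 in osteoinductive flight arrays, against 11.85 and 11.50 in osteoinductive ground-based arrays, and 12.22 and 12.64 in growth medium flight arrays, against 12.67 and 12.55 in growth medium ground-based arrays. It fell by 0.86 with flight in osteoinductive medium (limma adjusted p = 0.00329), with a change of -0.18 in growth medium (adjusted p = 0.46) and an interaction of -0.68 (SE 0.22, limma adjusted p = 0.999). Fmod, the small leucine-rich proteoglycan fibromodulin, rose by 0.97 in growth medium (limma adjusted p = 0.000256), with a change of 0.23 in osteoinductive medium and an interaction of -0.74. Hapln1, the link protein of cartilage aggrecan, had an interaction of -0.86, with 7.10 and 6.78 in osteoinductive flight arrays, against 6.14 and 6.26 in osteoinductive ground-based arrays, and 7.51 and 7.39 in growth medium flight arrays, against 5.87 and 5.84 in growth medium ground-based arrays. Hapln1 lay below the filter on dim genes. These genes were chosen after their values were seen, and limma's interaction test passed for none of the 3.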
